A study of Mus musculus with 20 samples.

Results

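Histone deacetylase Hdac5 was measured in the ileal mucosa of mice by 3 of the 648 real-time PCR assays of the TaqMan OpenArray mouse inflammation panel. All assays that carry the symbol Hdac5 in the deposited table were taken, and each was kept apart: Mm00515941_g1, Mm00515917_m1 and Mm01246076_m1. The gene was chosen by its relative levels in these data, which differed between the CEC and DNBS groups, so values of that comparison, and of those that share its samples, describe the choice and carry no p-value here. Only the difference of means between Nissle and healthy uses none of the CEC or DNBS samples, and it was tested. The spread in that test was estimated over all 4 groups, so the test itself is not free of those samples.

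There were 20 samples, 5 in each of 4 groups. The CEC group received intrarectal DNBS (the hapten dinitrobenzene sulfonic acid, given to induce colitis) and an oral treatment that the labels call CEC, without further description. The Nissle group received intrarectal DNBS and oral Nissle, the name of a probiotic Escherichia coli strain. The DNBS group received intrarectal DNBS and oral phosphate-buffered saline (PBS), and the healthy group received PBS by both routes. Strain, age and sex of the mice, and the doses, are not given in the sources used here. The design text says that equal amounts of RNA of the mice were pooled before the measurement, and it does not say how many mice stand behind a sample, so p-values measure the spread between these samples. The experimental group label of Nissle 3, 4 and 5 names healthy controls, while their titles, descriptions and treatment labels put them with Nissle. They were kept in the Nissle group, and group differences and gaps between assays were also computed without them.

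Class IIa histone deacetylases, to which Hdac5 belongs with Hdac4, Hdac7 and Hdac9, act as transcriptional corepressors. They bind MEF2 transcription factors at promoters and bring in corepressor complexes that hold the more active enzyme Hdac3. Calcium/calmodulin-dependent kinases and protein kinase D phosphorylate them, 14-3-3 proteins then bind, and the deacetylase leaves the nucleus. Hdac5 is best known from work on heart, skeletal muscle and neurons.

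Names leave 1 doubt about the assays. In the RefSeq gene table for GRCm38.p6, Hdac5 is the current symbol of 1 gene and also an older synonym of Hdac6, and Hdac4 is an older synonym of Hdac5. The panel's table gives the symbol and the assay number alone, so the transcript that each assay detects was not checked here. In the manufacturer's naming, an assay ending in m1 has its probe across an exon junction, and one ending in g1 can also amplify genomic DNA if some is present. The primer and probe sequences were not used here.

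The sequence shown is the promoter of Hdac5 itself, because its letters can be searched for the motifs of MEF2 factors and of Hif1a, which is among the measured partners of class IIa deacetylases. It is taken from RefSeq (GRCm38.p6, minus strand, chr11:102230123-102230422), 250 bases before to 50 bases after the start of the gene, and is written 5′ to 3′ with 2 matches in capitals. The first is a match to the MEF2 consensus, which starts 20 bases before the start site, and the second is the letters CACGTG, which begin just after the start site.

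Hdac5 promoter: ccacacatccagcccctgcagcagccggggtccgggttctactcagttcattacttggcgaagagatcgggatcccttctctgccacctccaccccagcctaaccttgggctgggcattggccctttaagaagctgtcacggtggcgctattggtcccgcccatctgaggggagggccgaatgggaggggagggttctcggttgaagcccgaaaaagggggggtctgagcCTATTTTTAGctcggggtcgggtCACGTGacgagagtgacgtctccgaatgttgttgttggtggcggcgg

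Both strands were searched. The MEF2 consensus matched in 3.19% of 32851 promoters of the same length, CACGTG in 7.15%, and ACGTG, the core of the hypoxia response element, in 19.6%. CACGTG holds ACGTG on each strand, so these matches overlap. The letters TGACG occurred at 2 places here, 1 of them overlapping CACGTG, and in 20.8% of promoters, and the full cAMP response element TGACGTCA had no match in this window (1.79% of promoters). A match is a description of the letters and shows no binding.

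The deposited values are raw cycle thresholds (Ct), the cycle at which fluorescence crosses a fixed level. The relative level used here is the sample's mean Ct over the 544 assays with no missing value minus the assay's own Ct, a log2 scale if the product doubles in each cycle, which was assumed. A level of 0 is thus the average of those assays in that sample. Of 648 assays, 570 to 594 gave a value in a sample, and the mean Ct of the 544 was 22.6 to 24.3 cycles. All 3 Hdac5 assays gave a value in all 20 samples, at 23.8 to 25.98 cycles for Mm00515941_g1, 23.8 to 26.1 cycles for Mm00515917_m1 and 22.6 to 24.5 cycles for Mm01246076_m1. Levels of different assays depend on their own amplification and are not compared with each other.

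In all 3 assays the DNBS group had the lowest mean level of Hdac5, and the other groups lay above it by 0.22 to 1.17 on the log2 scale. In bulk mucosa, a lower share of the cells that hold a transcript and less of it per cell cannot be told apart. For Mm00515941_g1, the relative levels were -0.78, -1.09, -1.39, -0.47 and -1.21 in CEC 1, 3, 5, 7 and 8, and -1.95, -1.01, -1.24, -1.37 and -1.09 in Nissle 1 to 5. They were -1.40, -2.27, -1.88, -2.03 and -1.54 in DNBS 1 to 5, and -1.48, -0.63, -1.17, -1.53 and -0.77 in healthy 1b, 3, 4, 5 and 6. Every CEC sample lay above every DNBS sample, by a margin of only 0.01 between CEC 5 and DNBS 1, while DNBS and healthy samples overlapped. The means were -0.99 ± 0.36 in CEC, -1.33 ± 0.37 in Nissle, -1.83 ± 0.36 in DNBS and -1.11 ± 0.41 in healthy samples (SD, n = 5 each). From the highest mean down, the order was CEC, healthy, Nissle and DNBS, and the 95% interval of the difference between neighbours in this order included 0 each time.

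For Mm00515917_m1, the relative levels were -1.85, -1.09, -1.64, -1.12 and -0.61 in CEC 1, 3, 5, 7 and 8, and -3.10, -1.04, -1.98, -1.57 and -1.56 in Nissle 1 to 5. They were -1.94, -3.05, -1.92, -2.89 and -2.34 in DNBS 1 to 5, and -1.22, -1.12, -1.27, -1.99 and -1.02 in healthy 1b, 3, 4, 5 and 6. CEC samples again lay above all DNBS samples, with a gap of 0.08 between CEC 1 and DNBS 3. Nissle 1 was the lowest of all 20 samples, and healthy 5 stood below the other healthy samples. The means were -1.26 ± 0.49 in CEC, -1.85 ± 0.78 in Nissle, -2.43 ± 0.53 in DNBS and -1.33 ± 0.39 in healthy samples (SD, n = 5 each), the same order of groups as before, with each neighbour's difference again within an interval that included 0.

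For Mm01246076_m1, the relative levels were -0.05, -0.16, 0.25, 1.04 and -0.06 in CEC 1, 3, 5, 7 and 8, and -1.24, 0.21, 0.30, 0.58 and 0.30 in Nissle 1 to 5. They were -0.32, -1.72, 0.53, -0.41 and 0.94 in DNBS 1 to 5, and 0.29, 0.22, -0.08, 1.02 and 0.31 in healthy 1b, 3, 4, 5 and 6. All groups overlapped. DNBS samples spread most widely: DNBS 2 was the lowest of the 20 samples, while DNBS 5 was among the 3 highest. The means were 0.20 ± 0.49 in CEC, 0.03 ± 0.72 in Nissle, -0.20 ± 1.02 in DNBS and 0.35 ± 0.41 in healthy samples (SD, n = 5 each), and no neighbours in the order of healthy, CEC, Nissle and DNBS differed beyond their spread.

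**Figure D1:**
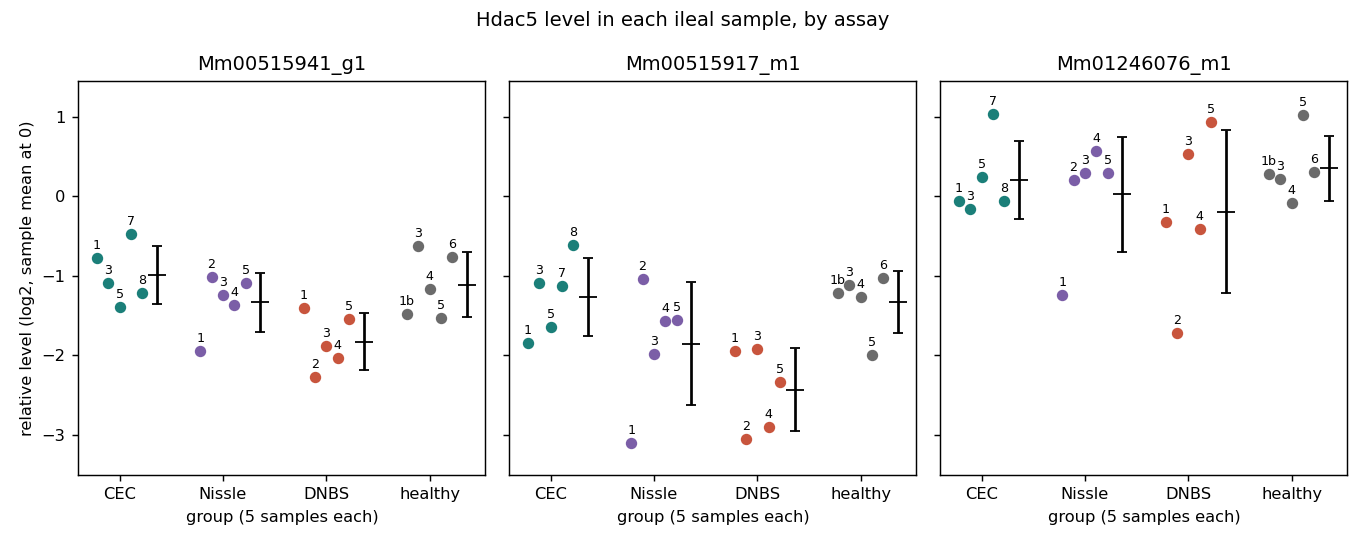
Relative level of Hdac5 (log2, the mean of the 544 assays with no missing value at 0) in each sample for each of the 3 assays. Points are samples with their number, and the bars beside them are the mean ± SD of 5. DNBS has the lowest mean in every panel, and its samples lie wholly below CEC for Mm00515941_g1 and Mm00515917_m1 but reach 0.94 for Mm01246076_m1.

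Hdac5 was higher in CEC than in DNBS samples by 0.84 on the log2 scale for Mm00515941_g1 (SE 0.29, 95% interval 0.24 to 1.44), which is 1.79-fold. The difference was 1.17 for Mm00515917_m1 (SE 0.38, 95% interval 0.38 to 1.95), which is 2.24-fold, and 0.40 for Mm01246076_m1 (SE 0.43, 95% interval -0.49 to 1.28), which is 1.32-fold. These values chose the gene and nothing is read from them. Over all 569 assays tested, the median difference in this comparison was -0.02, and 0 (0%) passed limma's moderated test at an adjusted p under 0.05, with 61 under 0.05 before adjustment. CEC samples lay wholly above DNBS samples in 11 of the 569 assays (1.93%), 2 of them the Hdac5 assays named above. The value of Mm01246076_m1 rested on DNBS 2 and DNBS 5: it was 0.02 without DNBS 2 and 0.68 without DNBS 5.

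Marker genes of cell types in the mucosa were read in the same samples. The mean relative level of 5 assays for ileal epithelium (Apoa1, Ccl20, Ccl25 and Ccl28) was 4.11 to 4.85 in CEC, 3.61 to 4.62 in Nissle, 3.34 to 4.08 in DNBS and 3.61 to 4.65 in healthy samples. Its correlation with Hdac5 over the 20 samples was 0.53 for Mm00515941_g1, 0.58 for Mm00515917_m1 and 0.10 for Mm01246076_m1. Apoa4, also on that list, had no value in any sample. For neutrophils, 8 assays of 7 genes (Camp, Fpr1, Il8rb, Ltf, Ncf1, S100a8 and S100a9) averaged -2.82 to 0.45 in CEC, -2.43 to 2.66 in Nissle, -2.25 to 0.79 in DNBS and -3.29 to -1.71 in healthy samples, with correlations to Hdac5 of -0.56, -0.63 and -0.72 in the same order of assays. T cells rested on Cd4 and Cd28 alone, with averages of -1.68 in CEC, -1.93 in Nissle, -2.11 in DNBS and -1.53 in healthy samples. Their correlations were 0.42, 0.57 and 0.79. The 6 assays for macrophages and dendritic cells averaged -0.38 in CEC, -0.53 in Nissle, -0.96 in DNBS and -1.34 in healthy samples. Here the correlations were -0.01, -0.18 and -0.54. For B cells, Cd40 and Cr2 averaged -1.98 in CEC, -2.19 in Nissle, -1.54 in DNBS and -1.28 in healthy samples. Correlations of these 2 were -0.18, 0.01 and 0.04. Endothelium rested on Selp alone, which averaged -2.88 in CEC, -1.93 in Nissle, -2.37 in DNBS and -3.96 in healthy samples, with correlations of -0.41, -0.59 and -0.52. Neurons rested on Scn9a alone, which averaged -2.44 in CEC, -2.81 in Nissle, -3.71 in DNBS and -1.958 in healthy samples, with correlations of 0.51, 0.44 and 0.18. The panel held none of the listed smooth muscle markers. All these correlations hold the group differences, and they were not computed on levels with runs of table rows centred (below). The part of these cells in the differences of Hdac5 was not tested.

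Against healthy mice, Hdac5 differed in DNBS samples by -0.71 for Mm00515941_g1 (SE 0.29, 95% interval -1.31 to -0.11), -1.10 for Mm00515917_m1 (SE 0.38, 95% interval -1.89 to -0.32) and -0.55 for Mm01246076_m1 (SE 0.43, 95% interval -1.43 to 0.34) on the log2 scale. Of the DNBS samples, 4 of 5 lay below every healthy sample for the first assay and 3 of 5 for the second and for the third. The share of all assays with such positions was not counted. With the sample number as a replicate block, the 3 differences were -0.72 (SE 0.41), -0.88 (SE 0.52) and -0.22 (SE 0.49), each less than 2 SE from 0, so the intervals of the first and second assay no longer lay below 0. By Mm01246076_m1, DNBS minus healthy was -0.17 without DNBS 2 and -0.83 without DNBS 5. CEC samples differed from healthy samples by 0.12, 0.06 and -0.15 in the same order of assays, all inside 1 SE of 0, and each changed sign when some single sample was left out (-0.01 to 0.25, -0.10 to 0.21 and -0.36 to 0.02). Nissle lay above DNBS by 0.49, 0.58 and 0.22, and CEC lay above Nissle by 0.34, 0.59 and 0.17, each with a 95% interval that included 0. Without Nissle 1, CEC minus Nissle was 0.19, 0.27 and -0.14, and Nissle minus DNBS was 0.65, 0.89 and 0.54. By Mm00515917_m1, Nissle minus DNBS was 0.38 without Nissle 2, and by Mm01246076_m1 it was -0.16 without DNBS 2 and 0.51 without DNBS 5. Without Nissle 3, 4 and 5, Nissle minus DNBS was 0.35, 0.36 and -0.32, and CEC minus Nissle 0.49, 0.81 and 0.72. These comparisons share groups with each other and with CEC against DNBS, so their agreement in sign is not independent. Over all assays, 0 of 569 (0%) passed between Nissle and DNBS and between CEC and Nissle (24 and 8 before adjustment), and 1 of 569 (0.176%) passed between CEC and healthy and between DNBS and healthy.

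**Figure D2:**
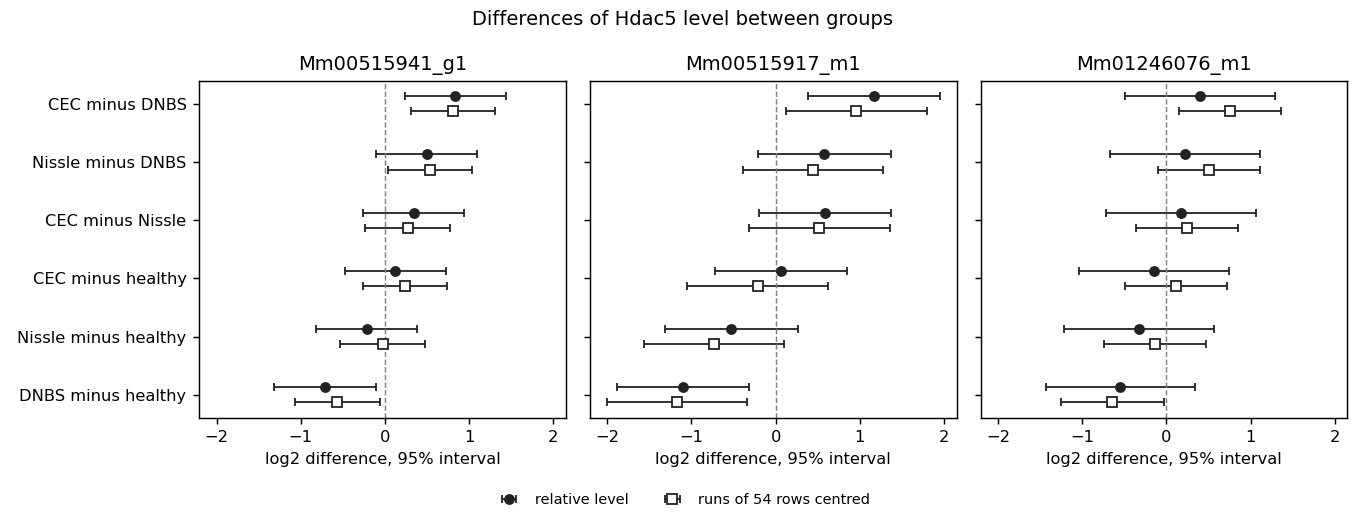
Differences of Hdac5 level between groups on the log2 scale (points) with 95% intervals (bars) for each assay, the group named first minus the other. Filled circles are relative levels, and open squares are levels after the runs of 54 rows were centred. For CEC minus DNBS the 3 circles lie at 0.84, 1.17 and 0.40, and the squares at 0.80, 0.96 and 0.75.

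Between Nissle and healthy samples, whose difference of means uses no CEC or DNBS sample, no Hdac5 assay passed. The SE came from the spread in all groups. The difference was -0.22 for Mm00515941_g1 (SE 0.29, 95% interval -0.82 to 0.38, limma adjusted p = 0.801). For Mm00515917_m1 it was -0.52 (SE 0.38, 95% interval -1.31 to 0.26, limma adjusted p = 0.575), and for Mm01246076_m1 -0.32 (SE 0.43, 95% interval -1.21 to 0.57, limma adjusted p = 0.801). In this comparison 1 of 569 assays passed (0.176%), 54 were under 0.05 before adjustment, and the median difference was -0.10. Each interval includes 0 and also the DNBS minus healthy value of the same assay. Nissle 1 held much of the difference: without it the values were -0.06, -0.21 and -0.01. Without Nissle 3, 4 and 5 they were -0.37, -0.74 and -0.87, and none passed.

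The assays of Hdac5 agreed to different degrees over the 20 samples. Mm00515941_g1 and Mm00515917_m1 had a Pearson r of 0.783 and a Spearman rho of 0.785, and r was 0.727 without CEC 7 and DNBS 2. These samples lay farthest from the median of the assay named first, and samples were left out by that rule in every pair. Mm00515941_g1 and Mm01246076_m1 had r = 0.521 and rho = 0.280, and r fell to 0.189 without the same 2 samples. For Mm00515917_m1 and Mm01246076_m1, r was 0.517 and rho 0.186, and r was -0.01 without DNBS 2 and Nissle 1, so this r depends on those samples. The pooled values hold the group differences for which the gene was noted and carry no p. After group means were removed, r over the 20 samples was 0.602 for the first pair (permutation p = 0.0116, adjusted over 3 pairs p = 0.0348, two-sided), 0.477 for the second (p = 0.0460, adjusted 0.0690) and 0.456 for the third (p = 0.0804, adjusted 0.0804). The matching within-group rho of 0.555, 0.409 and 0.278 had adjusted permutation p-values of 0.0597, 0.142 and 0.275. Without the 2 samples farthest from the median of the assay named first, the within-group r was 0.506, 0.266 and 0.413. The CEC and DNBS samples, whose values chose the gene, are among the 20, and all levels of a sample share its subtracted mean. The permutation p is thus not free of that choice or of the shared normalization. Within groups, the 4 pairs of Hdac4 and Hdac7 assays had r of 0.11 to 0.58.

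Raw Ct values of the sample share its amount of cDNA, and their r was 0.776, 0.349 and 0.383 in the same order of pairs. On the panel, 41 genes had several assays with a value in every sample, forming 70 pairs with a median r of 0.517 (quartiles 0.194 to 0.720). The Hdac5 pairs ranked 16, 34 and 37 among them from the highest r, so the closest Hdac5 pair lay above the upper quartile and the others near the median. This r holds the group differences for which the gene was chosen. The ranks, here and below, are thus not free of that choice. After group means were removed, r of the closest pair was 0.602, and places by that measure were not counted. Genes with many assays, such as Alox5 and Hprt1, supply several pairs each, many of low r, so the ranks are not places among genes. The 4 pairs of Hdac4 and Hdac7 assays had a median r of 0.450.

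The order of rows in the deposited table bears on these values. The 648 rows were divided into 12 runs of 54 consecutive rows, and the mean level of a run shifted from sample to sample. The range of this mean over samples was 0.49 in the run of Mm00515941_g1, the smallest, and 2.42 in the first run, the largest. Whether runs begin and end at these rows, and how closely single assays followed their run, was not tested. The labels do not say what the runs are. The mean of the run that holds Mm01246076_m1 ranged from -0.40 in DNBS 2 to 0.79 in DNBS 5, with 0.46 in DNBS 3 and 0.72 in healthy 5. Mm01246076_m1 itself was lowest in DNBS 2 and among its 5 highest in DNBS 3, DNBS 5 and healthy 5, and its level correlated with that mean at r = 0.65 over the 20 samples. For Mm00515917_m1 the run ranged from -0.76 in healthy 5 to 0.34 in CEC 3 (r = 0.07), and for Mm00515941_g1 only from -0.23 in Nissle 1 to 0.26 in healthy 6 (r = 0.46).

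**Figure D3:**
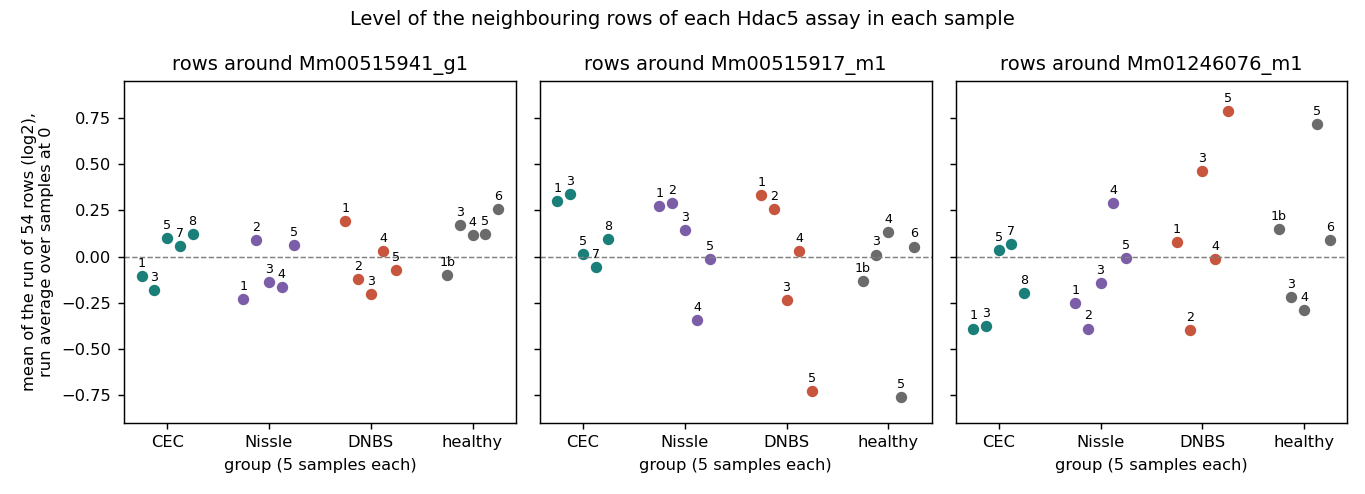
Mean of the run of 54 consecutive table rows that holds each Hdac5 assay, in each sample (log2, the average of the run over samples at 0). Points are samples with their number. In the rows around Mm01246076_m1, DNBS 5 and healthy 5 stand at 0.79 and 0.72, and in the rows around Mm00515917_m1 the same samples stand at -0.73 and -0.76.

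With each run centred in each sample, a treatment of the values chosen after they were seen, CEC minus DNBS was 0.80 (SE 0.24), 0.96 (SE 0.40) and 0.75 (SE 0.29) for Mm00515941_g1, Mm00515917_m1 and Mm01246076_m1, again the comparison that chose the gene and given as values alone. The complete separation of CEC from DNBS was lost: 4, 3 and 4 of 5 CEC samples lay above the highest DNBS sample, and 1 of 569 assays (0.176%) separated CEC above DNBS completely on these values. DNBS minus healthy, which shares the DNBS samples with that comparison, was -0.56 (95% interval -1.07 to -0.06), -1.17 (-2.01 to -0.34) and -0.64 (-1.25 to -0.03). Below every healthy sample lay 3, 5 and 4 of 5 DNBS samples, positions that were not counted over all assays. Pearson r of the pairs became 0.607, 0.798 and 0.816, ranks 27, 16 and 14 of the 70 pairs, while the median of all 70 was 0.496 and that of the Hdac4 and Hdac7 pairs 0.254. Both pairs with Mm01246076_m1 thus correlated more closely after centring, and the remaining pair less closely. Samples farthest from the median of the assay named first were again left out. Without CEC 7 and DNBS 2, r of the first and second pair was 0.458 and 0.667, and without DNBS 2 and Nissle 1 that of the third was 0.562.

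**Figure D4:**
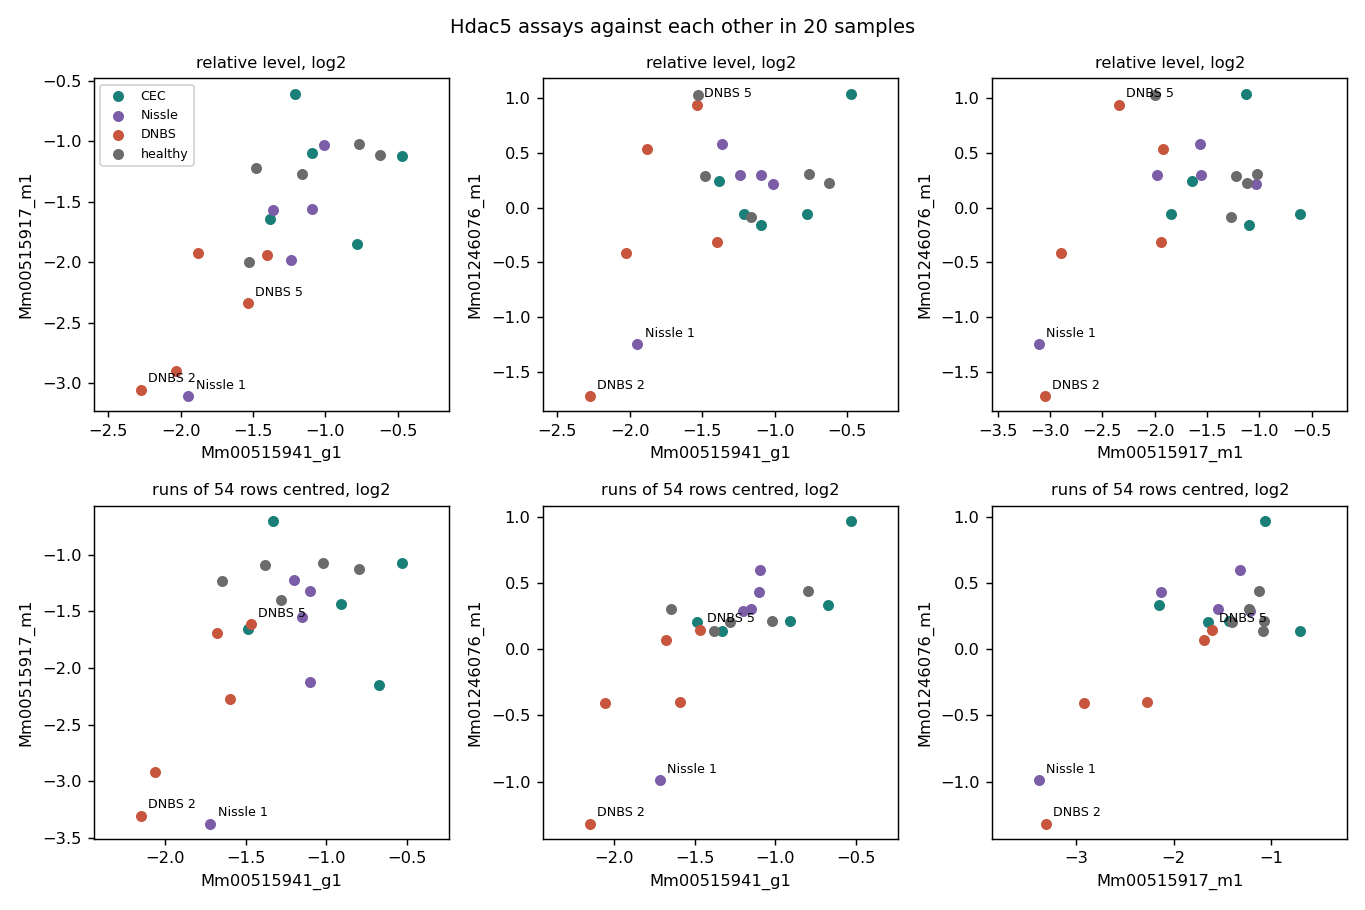
The 3 Hdac5 assays plotted against each other in the 20 samples (log2), coloured by group, as relative levels (upper row) and after the runs of 54 rows were centred (lower row). Pearson r is 0.783, 0.521 and 0.517 in the upper panels from left to right, and 0.607, 0.798 and 0.816 in the lower panels.

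**Figure D5:**
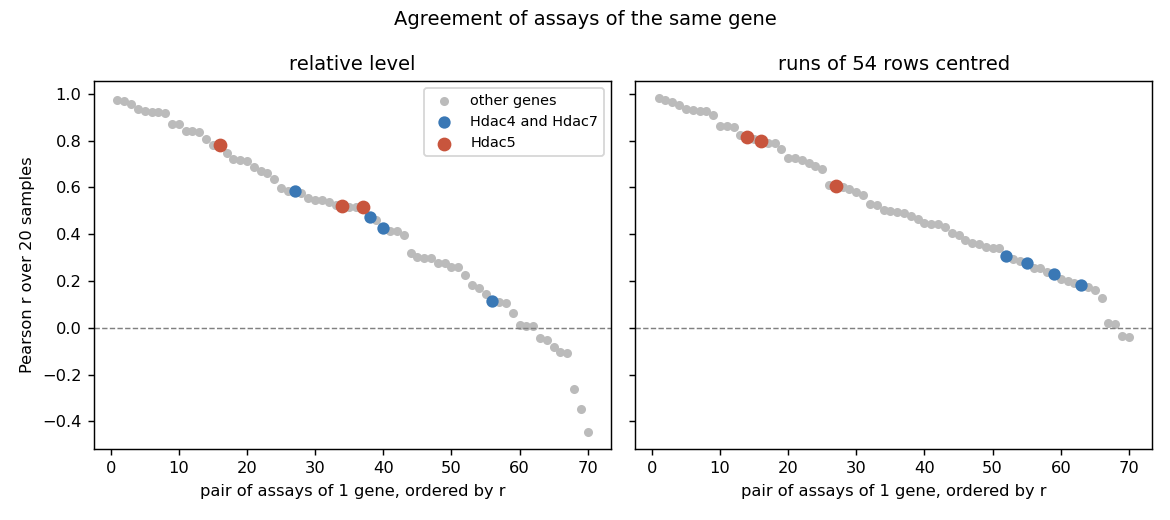
Pearson r over 20 samples for the 70 pairs of assays of the same gene, in order of r, for relative levels (left) and after the runs of 54 rows were centred (right). The Hdac5 pairs (red) hold places 16, 34 and 37 on the left and 14, 16 and 27 on the right, and the Hdac4 and Hdac7 pairs (blue) have medians of 0.450 and 0.254.

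The difference in Ct between 2 assays of the same sample needs no normalization and was tested between Nissle and healthy samples with an exact permutation test (all splits of 5 against 5, smallest possible p = 0.00794, two-sided). The level of Mm00515941_g1 minus that of Mm00515917_m1 averaged 0.52 ± 0.45 cycles in Nissle and 0.21 ± 0.31 cycles in healthy samples (SD, n = 5 each, exact p = 0.262, adjusted over the 3 pairs 0.786). The gap of Mm00515941_g1 to Mm01246076_m1 differed by 0.11 cycles (exact p = 0.794) and that of Mm00515917_m1 to Mm01246076_m1 by -0.20 cycles (exact p = 0.643). None of the 3 gaps thus passed. Single samples moved them: the first was 0.15 without Nissle 1 and the third -0.54 without healthy 5. Without Nissle 3, 4 and 5, the 3 gaps differed by 0.38, 0.50 and 0.12 cycles. With runs centred, the last gap differed by -0.60 cycles (exact p = 0.0317, adjusted 0.0952) and the first by 0.71 cycles (exact p = 0.0635, adjusted 0.0952).

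Of 18 other histone deacetylases and sirtuins listed, the panel measured Hdac4, Hdac7 and Hdac9, all class IIa, with 6 assays. None of the 6 passed limma's test in any of the 6 comparisons, and none was under 0.05 before adjustment. For Hdac4, CEC minus DNBS was 0.60 (Mm01299543_m1, SE 0.49), 0.04 (Mm01299565_m1, SE 0.27) and 0.55 (Mm01299557_m1, SE 0.35). For Hdac7, known for its role in developing T cells and endothelium, it was -0.13 (Mm00469527_m1, SE 0.30) and 0.07 (Mm00469520_m1, SE 0.25). Hdac9, which also has a short form without the catalytic domain, had -0.55 (SE 0.39), opposite in sign to Hdac5. With runs of rows centred, the Hdac4 values were -0.15, -0.12 and 0.27, so the sign of the first and second turned, those of Hdac7 were -0.17 and 0.26, and that of Hdac9 was -0.20. The median of the 6 was 0.05, against -0.02 over all 569 assays, and the smallest adjusted p was 0.573. Between Nissle and healthy samples the 6 assays had a median of -0.13, with the smallest adjusted p of 0.500 for Hdac9 at -0.74 (SE 0.39).

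Of 64 listed partners, kinases and targets of class IIa deacetylases, 11 were on the panel with 1 assay each: Hif1a, Klf6, Nfatc3, Nfkb1, Ywhaz, Bcl6, Nfatc4, Foxp3, Jun, Stat3 and Rela. None passed in any of the 6 comparisons, and their median in CEC minus DNBS was 0.05. The 4 with the smallest p there are given as values that did not pass. Hif1a, the oxygen-regulated transcription factor subunit, averaged 2.15 ± 0.40 in CEC and 3.19 ± 0.67 in DNBS samples (SD, n = 5 each), a difference of -1.04 (SE 0.34, limma adjusted p = 0.385). Klf6, a zinc-finger transcription factor, had 0.51 (SE 0.27, limma adjusted p = 0.480). Nfatc3, a calcium-regulated factor of lymphocytes, had 0.63 (SE 0.41), and Nfkb1, which encodes a subunit of NF-kappa B, had 0.65 (SE 0.45), both at a limma adjusted p of 0.573.

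Between Nissle and healthy samples, the 4 partners with the smallest p were Stat3, Klf6, Bcl6 and Hif1a. Stat3, which carries signals of cytokines such as those of the interleukin-6 family, had -0.51 (SE 0.23, limma adjusted p = 0.488). Klf6 had -0.56 (SE 0.27, limma adjusted p = 0.500), and Bcl6, a transcriptional repressor that binds class IIa deacetylases, had 0.90 (SE 0.45, limma adjusted p = 0.500). Hif1a had 0.50 (SE 0.34, limma adjusted p = 0.575). Ywhaz, a 14-3-3 protein, also served as a housekeeping assay and is part of an alternative normalization. When samples were weighted by their quality, Hif1a and Klf6 passed in CEC against DNBS and in DNBS against healthy, 4 calls in all, and without DNBS 5 Hif1a alone passed in DNBS against healthy (limma adjusted p = 0.038).

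The assays most like each Hdac5 assay were found by Pearson r of relative levels over 20 samples among 541 assays measured in all of them. They share the samples, their normalization and the group differences, and no p is given. For Mm00515941_g1 the highest were Fgf12 (r = 0.763), a fibroblast growth factor homologue, Gpx4 (0.745), a lipid peroxide reductase, Grn (0.728), which encodes progranulin, Ccl25 (0.727), the small intestinal chemokine, and Cd74 (0.698), the invariant chain of MHC class II. Its lowest were Tnfsf9 (-0.858), the ligand of the costimulatory receptor Tnfrsf9, Hif1a (-0.852) and Il18rap (-0.788), a subunit of the interleukin-18 receptor.

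For Mm00515917_m1 the highest were Cd74 (r = 0.829) and Ccl25 (0.829), then Socs2 (0.770), a suppressor of cytokine signalling, Ccl6 (0.740), a chemokine of myeloid cells, and Nmi (0.737), an interferon-induced protein. The lowest were Hif1a (-0.810), Socs1 (-0.761), an inhibitor of Janus kinase signalling, and Ccl11 (-0.738), the eosinophil chemokine eotaxin. The lists of these assays shared Ccl25 and Cd74 at the high end and Hif1a at the low end. With runs centred, the likeness of Mm00515941_g1 to Gpx4, Ccl25 and Cd74 was weaker, at r of 0.50, 0.49 and 0.40 and places 32, 36 and 85 of 541, while Fgf12 and Grn stood at places 4 and 6. For Mm00515917_m1, Ccl25 and Cd74 then stood at places 1 and 6. Hif1a stood at place 539 for Mm00515941_g1 (r = -0.75) and at place 541 for Mm00515917_m1 (r = -0.84). Fgf12 lies in the same run of rows as Mm00515941_g1, and Cd74 and Ccl25 lie in the same run as Mm00515917_m1.

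Mm01246076_m1 shared none of these. Its highest were Cdo1 (r = 0.875), a cysteine dioxygenase, P2ry1 (0.875), an ADP receptor, Mgll (0.859), monoglyceride lipase, Lepr (0.857), the leptin receptor, and Ltbp4 (0.846), which binds latent TGF-beta. Its lowest were Cxcl5 (-0.934), a neutrophil chemokine, Il1rn (-0.904), the interleukin-1 receptor antagonist, and Il1b (-0.885), interleukin-1 beta. Cdo1 and P2ry1 lie in its own run of rows, and the 5 highest kept r of 0.72 to 0.82 with runs centred. In the order named, these 5 then stood at places 10, 13, 5, 19 and 14 of 541. The runs that hold Mgll, Lepr and Ltbp4 shifted with its own run (r = 0.91, 0.95 and 0.60). Those that hold Cxcl5, Il1rn and Il1b shifted opposite to it (r = -0.92, -0.92 and -0.93). Cxcl5, Il1rn and Il1b stayed at -0.88, -0.86 and -0.78, at places 540, 539 and 534 of 541.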

How the data were processed

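Real-time PCR was run on total RNA of ileal mucosa from 20 samples. The deposited table holds raw Ct values on a scale of their own (not normalized, per the file headers), and a value of 40 marks an assay without amplification (1273 of 12960 cells, 9.82%), treated as missing here, with 1 further empty cell. RNA was isolated with the mirVana kit, per the labels' protocols. Threshold settings, the number of wells per value and the plate layout are not given in the sources used here. Samples were grouped by their titles, descriptions and treatment labels, and no 2 samples held identical values.

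Relative levels (above) were fitted with limma 3.58.1 in R 4.3.3: 4 group means over 20 samples, empirical Bayes with a trend, two-sided, Benjamini-Hochberg adjustment over the 569 assays with at least 3 values in each group, at 0.05. Correlations were computed with pandas 2.3.3, and permutation tests with NumPy 2.4.6, with 100000 draws within groups for correlations. SciPy 1.17.1 gave ranks, the quantiles of the intervals and the adjustment over pairs. The members, gene lists and tests were chosen with earlier results of these data known. Named genes are all Hdac5 assays and all measured deacetylases, the partners that passed or, where none did, the 4 with the smallest p in CEC against DNBS and in Nissle against healthy, and per Hdac5 assay the 5 highest and 3 lowest correlations. Alternatives changed the normalization (median, 16 assays of 10 reference genes, quantile, none), the treatment of undetermined and low values, sample weights, samples and the replicate block. The centring of runs of 54 rows, and the omission of samples from the gaps between assays, were added after the data were seen. On simulated data for Nissle against healthy (569 assays, 200 changed), the fit recovered 44% of changes of 1 and 85% of changes of 2 on the log2 scale, with 1 false call. In the real comparison only 1 of 569 assays passed, and the simulated spread was drawn apart for each assay, without shifts of runs. The recovered percentages thus do not measure the power for Hdac5, whose differences there were also smaller than the sizes simulated. The titles number the samples. DNBS and healthy share 3 numbers whose samples deviated together (correlations of 0.14 to 0.49). The samples were matched by the numbers in their titles, and the labels do not call them pairs. The 0.49 belongs to DNBS 5 and healthy 5, whose runs of rows shifted alike, such as 0.79 and 0.72 in the run of Mm01246076_m1. The part of these shifts in the correlations was not tested. Other comparisons did not show positive correlations in all pairs or shared only 2 numbers. RefSeq tables (GRCm38.p6) gave names and the promoter.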

Additional observations from a re-analysis of the deposited data

Results flagged for a closer look

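Among 36 sets of 5 samples (9 deacetylase assays in 4 groups), 2 held a sample far from the others of its group by Dixon's test at its 95% critical value, and chance alone marks about 1 in 20. Hdac5 by Mm00515917_m1 was -1.99 in healthy 5 (25.8 cycles), with the nearest healthy sample at -1.27. The run of rows around this assay was also low there, at -0.76, and with runs centred healthy 5 stood at -1.23, inside the healthy range of -1.40 to -1.08. Hdac5 by Mm01246076_m1 was -1.24 in Nissle 1 (23.8 cycles), with the nearest Nissle sample at 0.21. With runs centred Nissle 1 stayed lowest in its group at -0.99, and it was also the lowest Nissle sample by the other 2 assays, at -1.95 and -3.10.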

How the results depend on the processing

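With 5 samples a group, limma's SE of an Hdac5 difference was 0.29 to 0.43, and amplification efficiency was not measured. For CEC minus DNBS, whose sign the choice of the gene fixed, leaving out 1 sample gave 0.71 to 0.94 for Mm00515941_g1, 1.003 to 1.31 for Mm00515917_m1 and 0.02 to 0.68 for Mm01246076_m1, and the replicate block gave 0.68, 0.95 and 0.01 (SE 0.41, 0.52 and 0.49). Nissle minus healthy passed under no alternative (adjusted p 0.352 to 0.996) but changed sign: to 0.22 for Mm00515941_g1 and 0.12 for Mm01246076_m1 without normalization, and for Mm01246076_m1 to 0.086 with sample weights and 0.0035 with the replicate block. Leaving out 1 sample gave -0.32 to -0.06, -0.73 to -0.21 and -0.46 to -0.01. CEC minus Nissle was -0.06 by Mm00515941_g1 and -0.22 by Mm01246076_m1 without normalization. Centring runs of rows moved the agreement of Mm01246076_m1 with the other assays to r = 0.798 and 0.816. The gap of Mm00515941_g1 to Mm01246076_m1 between Nissle and healthy ranged from -0.17 (without healthy 5) to 0.26 (without healthy 3) and was -0.06 without Nissle 1 and 0.50 without Nissle 3, 4 and 5. That of Mm00515917_m1 to Mm01246076_m1 was -0.60 with runs centred (exact p = 0.0317) and 0.12 without Nissle 3, 4 and 5. Calls among the other deacetylases and partners were 0, but 4 with sample weights, and 0 to 1 when 1 sample was left out. The causes were not tested. The shared numbers, used as a block, changed no call.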
